A study of Mus musculus with 4 samples.

Results

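The genes described here mark the M cell and the follicle epithelium of the gut. They are Gp2, Spib, Tnfaip2, Tnfrsf11a, Tnfrsf11b, Marcksl1, Anxa5 and Sox8, taken as the rows of the deposited count table that carry exactly these names. All 8 were found among the 56748 genes listed, and 6 of them had enough counts to be tested, among 16094 genes tested in all. Gp2 and Sox8 were too low in 3 of the 4 libraries to be tested and are given by their counts.

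M cells are epithelial cells that lie over the lymphoid follicles of the gut, such as those of Peyer's patches, and carry particles and microbes from the lumen to the immune cells below. They arise from the crypts next to a follicle when RANKL, a cytokine made by stromal cells under the epithelium, binds its receptor RANK on epithelial cells and activates NF-κB. The transcription factors Spi-B and Sox8 then drive maturation, the mature cell carries glycoprotein 2 (GP2) on its surface, and osteoprotegerin, a soluble decoy receptor, binds RANKL and limits the process. Several of these genes are also used outside the M cell: Spib by B cells and plasmacytoid dendritic cells, Gp2 by acinar cells of the pancreas, Sox8 by glia, and Anxa5, Marcksl1, Tnfaip2 and Tnfrsf11b by many stromal, endothelial or immune cells.

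RNA-seq was performed on the small intestine (SI) of WT (p53+/+) and p53-/- mice at day 1 after 12 Gy of total-body irradiation (TBI) from a Cs-137 source, with 2 libraries per genotype and no unirradiated SI. The p53-/- animals lack p53 in every tissue, epithelium and immune cells alike. The study's methods describe age- and gender-matched young adult mice from the Jackson Laboratory, and the segment of the SI taken and the handling of Peyer's patches are not given in the sources used here. The libraries are called 7 and 8 (WT) and 9 and 10 (p53-/-) after the table's columns, numbers that pair no animals. Levels are given in CPM, the counts of a gene relative to the library's total, brought to a common library size with TMM factors.

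The libraries held between 15005479 and 22173164 counts. The labels of genotype were matched by Phlda3, a gene induced by p53, which fell from 89.6 ± 3.26 CPM (SD, n = 2) in WT to 1.74 ± 0.273 CPM (SD, n = 2) in p53-/- SI (edgeR quasi-likelihood adjusted p = 0.00566). Trp53 itself was at 52.4 CPM in WT and 21.2 CPM in p53-/- SI, on average (adjusted p = 0.0602 in the same edgeR test). Both genotypes had a library that stood apart from its replicate. In library 10, the summed level of 10 B cell markers was 606 CPM against 32.7 in library 9 and 3.34 and 4.54 in the WT libraries. Library 10 also had 588 counts of Xist, against 2, 0 and 4 in libraries 7, 8 and 9. Xist is a transcript of the inactive X chromosome of female cells. The libraries thus differed in this marker of sex, although the methods describe gender-matched mice. Of the counts of library 10, 4.59% lay on the 18S ribosomal RNA gene Rn18s-rs5, against 0.296% to 0.863% in the others. Smooth muscle markers summed to 336, 3141, 762 and 518 CPM in libraries 7 to 10, with library 8 far above the others. Fibroblast markers summed to 109, 641, 464 and 475 CPM, where library 7 was the one far from the others. In pieces of whole tissue, fewer cells of a type and less RNA per cell cannot be told apart.

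The bases just before the start sites are shown for Gp2 and Spib, the members with the largest difference between the p53-/- libraries. The sequences are RefSeq's, 250 bases up to but not including the start site on GRCm38.p6, written 5′ to 3′ on the gene's own strand. Capitals mark GGAA on either strand, the invariant core bound by ETS factors, the family of Spi-B, which was chosen for display after 4 other motifs had no match. The windows are chr7:119459273-119459522 (minus strand) for Gp2 and chr7:44532072-44532321 (minus strand) for Spib. RefSeq's start site of Gp2 lies inside the gene as GENCODE annotates it, so the last 13 bases of its window are within that gene.
Gp2: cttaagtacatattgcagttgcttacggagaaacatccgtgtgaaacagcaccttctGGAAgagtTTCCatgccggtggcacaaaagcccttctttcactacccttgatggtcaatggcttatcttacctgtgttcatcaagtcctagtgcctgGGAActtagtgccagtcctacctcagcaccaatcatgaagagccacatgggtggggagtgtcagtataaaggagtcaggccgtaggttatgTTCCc
Spib: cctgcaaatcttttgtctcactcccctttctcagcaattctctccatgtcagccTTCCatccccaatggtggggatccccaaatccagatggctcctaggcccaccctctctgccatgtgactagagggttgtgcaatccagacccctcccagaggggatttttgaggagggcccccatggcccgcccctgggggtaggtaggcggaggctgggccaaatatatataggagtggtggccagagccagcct
The core occurred 4 times before Gp2 and 1 time before Spib, against a median of 3 over 32851 mouse promoters, and 33.4% of those promoters held it at least 4 times. Longer motifs were searched on both strands in RefSeq's windows of 7 members, with 50 further bases after the start site; Tnfrsf11b had no entry. For Tnfaip2, 192 of the 250 bases before RefSeq's start site lay inside the gene as annotated by GENCODE. These motifs were GAGGAAGT (Spi-B and PU.1), the NF-κB motif (GGG and TTTCC, 2 bases apart), the p53 motif (a pair of CATG cores, 6 bases apart) and ACAATG (SOX factors), present in 3.2%, 1.63%, 0.712% and 12.6% of all promoters of this length. None of the 4 had a match in the windows of the 7 members.

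Gp2, Spib and Sox8 had many more counts in library 10 than in library 9, the other p53-/- library, where they were near the WT level. Gp2 (ENSMUSG00000030954; GRCm38 chr7:119442537-119459285, minus strand, by the GENCODE M21 annotation), which encodes the surface receptor for bacterial fimbriae, had 7 and 5 counts in the WT libraries, 5 in library 9 and 217 in library 10. In CPM these were 0.433, 0.324, 0.219 and 10.8. Library 10 thus lay far above the other 3, and library 9 lay below both WT libraries, so the genotypes overlapped. The ratio of library 10 to library 9 was 49.3 (95% interval 20.8 to 153, from an exact binomial interval of the counts, for counting error only).
Spib (ENSMUSG00000008193; chr7:44525993-44532071, minus strand), which encodes Spi-B, had 125 and 109 counts in WT and 182 and 1543 in p53-/- SI. Scaled, the WT libraries were at 7.74 and 7.07 CPM, library 9 at 7.98 CPM and library 10 at 76.8 CPM. The genotypes did not overlap, but library 9 exceeded the higher WT library by less than the WT libraries differed from each other. The log2 fold change of Spib between genotypes was 2.51 (standard error 0.989, edgeR quasi-likelihood adjusted p = 0.274), and it was 0.16 without library 10. Sox8 (ENSMUSG00000024176; chr17:25565892-25570686, minus strand), the SOX factor of the mature M cell, had 2 and 3 counts in WT, 1 in library 9 and 19 in library 10. Its low counts allow no fold change, and 1 annotated gene overlaps its exons on the other strand. All 3 genes were thus highest in library 10, and there the B cell markers were highest as well.

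**Figure D1:**
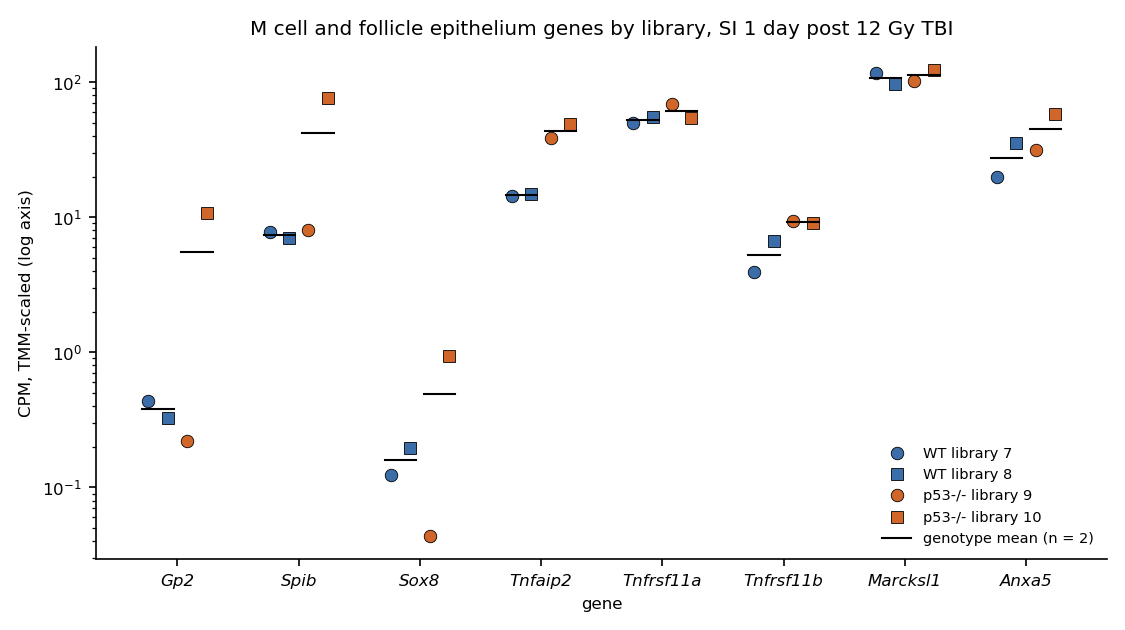
Level of each of the 8 genes in CPM on a log axis, with 1 point per library (blue for WT, orange for p53-/-; circles for libraries 7 and 9, squares for libraries 8 and 10) and a bar at the mean of each genotype. Gp2, Spib and Sox8 are high only in library 10, Tnfaip2 is higher in both p53-/- libraries, and Marcksl1 lies between 96.5 and 122 CPM in all 4.

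Tnfaip2 showed the most even difference between genotypes. Tnfaip2 (ENSMUSG00000021281; chr12:111442469-111455018, plus strand) encodes M-Sec, a protein of membrane tubules that is induced by TNF. It had 231 and 227 counts in WT and 886 and 979 in p53-/- SI, or 14.3 and 14.7 CPM against 38.8 and 48.7 CPM. Both p53-/- libraries stood well above both WT libraries, and the libraries of each genotype lay close together. Markers of immune cells were higher in the same libraries: plasma cell markers summed to 250 and 1101 CPM in WT and 6357 and 8317 CPM in p53-/- SI, with Derl3, of the endoplasmic reticulum, called higher (log2 fold change 3.19, edgeR adjusted p = 0.0424). T cell markers summed to 8.11 and 15.3 CPM in WT and 67.3 and 124 CPM in p53-/- SI, and macrophage markers to 72.5 and 163 CPM and 208 and 272 CPM. The part of these cells in the level of Tnfaip2 was not tested. The log2 fold change was 1.59 (standard error 0.200), a 3.01-fold higher level, with a quasi-likelihood adjusted p of 0.0541 in edgeR, just above the threshold of 0.05. With DESeq2 the adjusted p was 6.86e-07. The log2 fold change lay between 1.47 (without library 10) and 1.75 (without library 9) when single libraries were omitted, which leaves 1 library in a genotype. Over the alternatives that kept all 4 libraries, the smallest adjusted p was 9.76e-09 (edgeR with no filter on low counts). The largest was 0.0675 (edgeR quasi-likelihood with library size only). A gene on the other strand that overlaps the exons of Tnfaip2, Gm40578, had at most 2 counts in any library.

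RANK overlapped between the genotypes, its decoy did not, and neither passed the threshold. Tnfrsf11a (ENSMUSG00000026321; chr1:105780718-105847981, plus strand) encodes RANK, the receptor that starts M cell differentiation. It was at 50.1 and 55.4 CPM in WT and at 69.0 and 53.9 CPM in p53-/- SI, from 810, 854, 1574 and 1084 counts. The genotypes overlapped, with library 10 between the WT libraries, and the log2 fold change of Tnfrsf11a was 0.22 (standard error 0.182, edgeR quasi-likelihood adjusted p = 0.601). RANK was thus not among the members that were high in library 10.
Tnfrsf11b (ENSMUSG00000063727; chr15:54250619-54278484, minus strand) encodes osteoprotegerin, the decoy receptor. It was at 3.90 and 6.68 CPM in WT and at 9.34 and 9.05 CPM in p53-/- SI, from 63, 103, 213 and 182 counts. Both p53-/- libraries exceeded both WT libraries and were nearly equal, while the WT libraries differed by more. The log2 fold change of Tnfrsf11b was 0.80 (standard error 0.391, edgeR quasi-likelihood adjusted p = 0.366), and it was 0.47 without library 7 and 1.24 without library 8. RANKL itself, encoded by Tnfsf11, had 0 and 3 counts in WT, 6 in library 9 and 102 in library 10. Of the ligand, the receptor and the decoy, the ligand alone stood apart in library 10. The part of stromal and of immune cells in the level of Tnfsf11 was not tested.

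The last 2 members had the highest levels per kilobase of exon and are widely expressed. Marcksl1 (ENSMUSG00000047945; chr4:129513581-129515985, plus strand), a MARCKS-related protein that binds actin and calmodulin, was at 117 and 96.5 CPM in WT and at 103 and 122 CPM in p53-/- SI. The genotypes overlapped in part, and differed by 0.08 on the log2 scale (standard error 0.189, edgeR quasi-likelihood adjusted p = 0.879), a value that took both signs, from -0.05 to 0.23, as single libraries were left out. Reads of Marcksl1 could have been shared with its processed pseudogenes, of which 2 are listed, each at 0 counts in all 4 libraries. Anxa5 (ENSMUSG00000027712; chr3:36448923-36475894, minus strand), the phosphatidylserine-binding annexin A5, was at 19.8 and 35.2 CPM in WT and at 31.6 and 57.8 CPM in p53-/- SI. The genotypes overlapped, since library 9 lay below library 8. The log2 fold change of Anxa5 was 0.70 (standard error 0.394, edgeR quasi-likelihood adjusted p = 0.428) and 0.24 without library 10.
Anxa5 and Tnfrsf11b were also the members that differed most between the WT libraries, by 0.83 and 0.76 on the log2 scale. Both were higher in library 8, where the fibroblast and smooth muscle markers were higher than in library 7. Endothelial (23.8 and 65.9 CPM in libraries 7 and 8), macrophage (72.5 and 163 CPM) and plasma cell markers (250 and 1101 CPM) were higher there too. Pan-epithelial markers were lower (18910 and 13691 CPM). The part of stromal, endothelial or immune RNA in these differences was not tested.

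**Figure D2:**
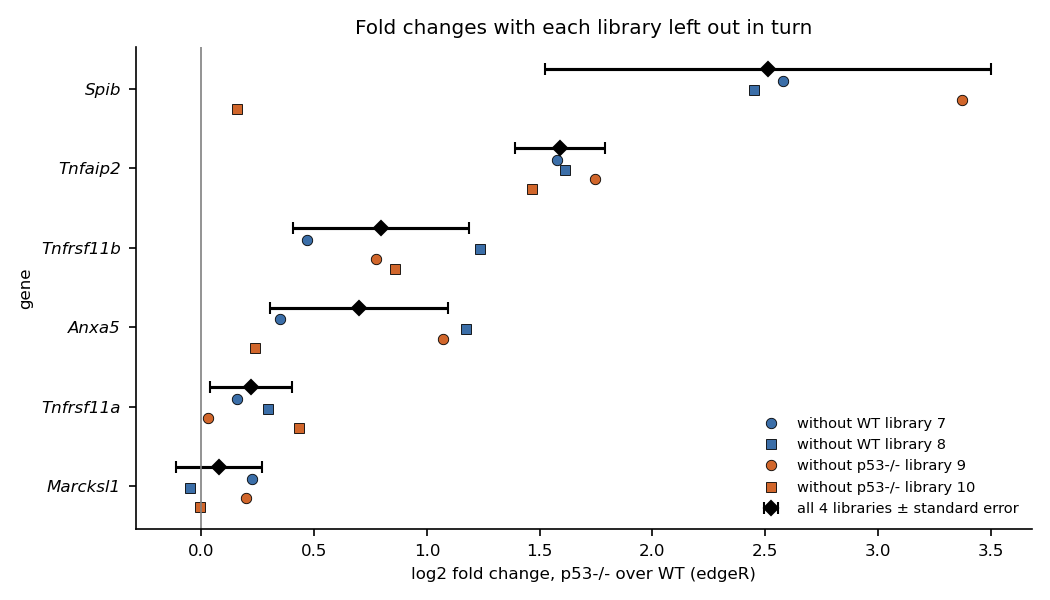
Log2 fold change of the 6 tested genes between p53-/- and WT SI, from edgeR, with all 4 libraries (black diamonds, bars give the standard error) and when single libraries were omitted (coloured points). Spib moves from 2.51 to 0.16 without library 10, while Tnfaip2 stays between 1.47 and 1.75.

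Of the 6 members tested, 0 passed the threshold in edgeR's quasi-likelihood test, where 0.298% of all tested genes were called higher and 0.193% lower. Spib and Tnfaip2 had an unadjusted p under 0.05, as 10% of tested genes did in the higher direction and 7.92% in the lower. DESeq2 called 1 member higher, Tnfaip2, against 5.47% of the genes to which it gave an adjusted p (4.47% lower). The likelihood ratio test of edgeR also called Tnfaip2 alone, against 5.18% of genes higher, and with no filter on low counts 4 members were called (Gp2, Spib, Tnfaip2 and Anxa5), against 5.15%. In 3 of the 6 (Spib, Tnfaip2 and Tnfrsf11b) both p53-/- libraries lay above both WT libraries, against 26.4% of all tested genes, and in 0 both lay below (24.4%). All 6 had a log2 fold change above 0, with a median of 0.75 beside -0.01 for all genes tested. Without library 10 the members' median was 0.34. Scaled to epithelial markers it was 1.17, where the median of all genes was 0.45, and Tnfrsf11a, Tnfrsf11b, Anxa5 and Marcksl1 were then at 0.65, 1.2, 1.14 and 0.57.

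Set per kilobase of exon, so that genes can be compared, the levels in the WT libraries ran from Marcksl1 (72.6 and 60.2 CPM per kb) through Anxa5 (11.1 and 19.8), Tnfrsf11a (8.38 and 9.26), Tnfaip2 (2.87 and 2.96), Spib (2.70 and 2.47) and Tnfrsf11b (1.38 and 2.37) to Gp2 (0.217 and 0.162) and Sox8 (0.0397 and 0.0624). The WT libraries of neighbouring genes did not overlap, but Anxa5 and Tnfrsf11a, Tnfaip2 and Spib, and Spib and Tnfrsf11b were separated by less than the 2 WT libraries of one of them differed. In library 10 the level of Spib per kb was 26.8 CPM, above Tnfaip2 at 9.77 CPM and Tnfrsf11a at 9.01 CPM, and that of Gp2 was 5.40 CPM, above Tnfrsf11b at 3.21 CPM. In library 9 Spib was at 2.78 CPM per kb and Gp2 at 0.110 CPM per kb, so the order there was that of the WT libraries for these genes, except that Tnfrsf11b at 3.31 CPM per kb lay above Spib. RANK exceeded osteoprotegerin per kb of exon in every library, at 11.5 against 3.31 CPM per kb in library 9 and 9.01 against 3.21 CPM per kb in library 10.

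The members were then compared between the libraries of one genotype, a difference in which genotype has no part. The p53-/- libraries also differed in Xist, with 4 counts in library 9 and 588 in library 10. The part of sex in their differences was not tested. Between the p53-/- libraries, library 10 was above library 9 by 5.06 for Gp2 and 3.25 for Spib on the log2 scale of CPM with a prior count of 2. Of all tested genes, 5.93% were at least 2-fold higher in library 10 than in library 9 (2.45% lower), and 0.0808% and 0.435% had a difference as large as those of Gp2 and Spib. Sox8 had 1 and 19 counts in this pair, too few for a ratio to be read. The other 5 members were within 2-fold, from -0.35 for Tnfrsf11a to 0.87 for Anxa5. Between the WT libraries, the 7 members other than Sox8 were within 2-fold, from -0.32 for Gp2 to 0.83 for Anxa5. Most tested genes were within 2-fold as well, with 16.1% at least 2-fold higher in library 8 than in library 7 and 2.81% lower.

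**Figure D3:**
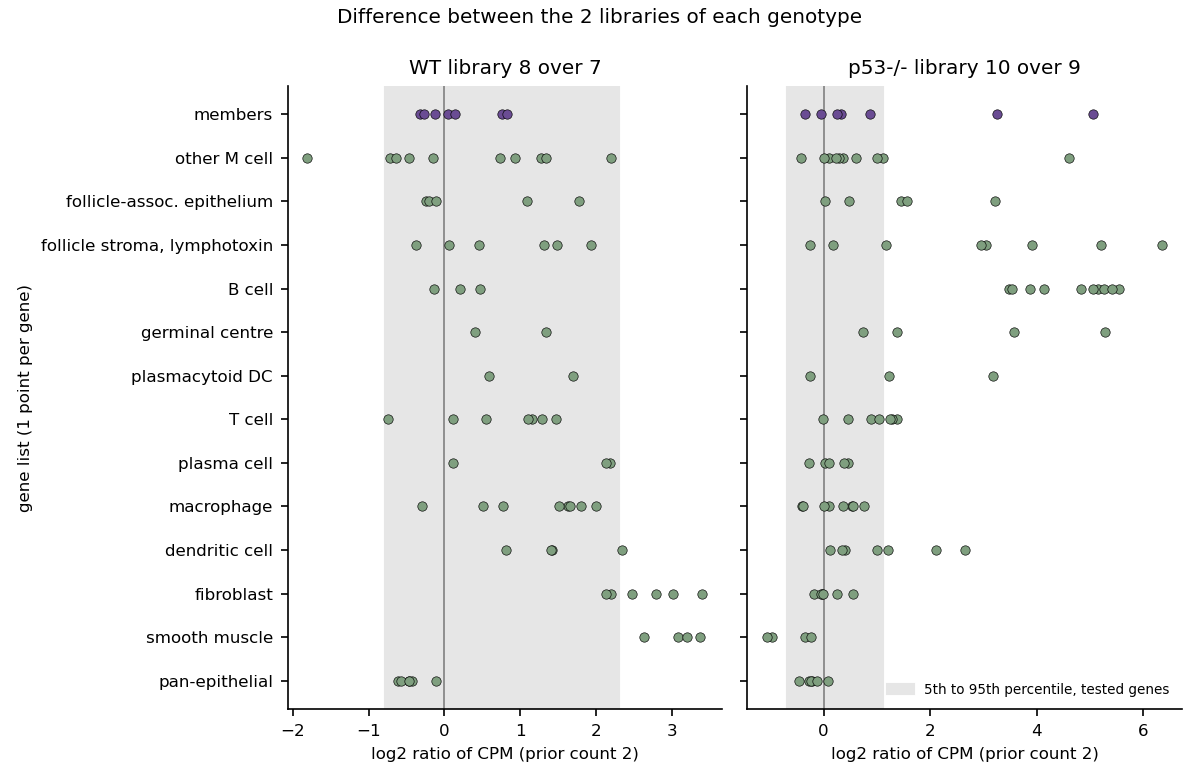
Log2 ratio of CPM between the 2 libraries of WT (left) and of p53-/- SI (right), with 1 point per gene, for members (purple) and lists of other genes (green) with more than 3 counts in both libraries of the pair; the grey band spans the 5th to 95th percentile of all tested genes. Spib and Gp2 lie right of the band in the p53-/- pair, at 3.25 and 5.06, with all 10 B cell genes, and the 7 members shown lie within the band in the WT pair.

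B cell and follicle genes were also higher in library 10. All 10 B cell markers had more counts in library 10 than in library 9, by 3.48 (Cd79a, a chain of the B cell receptor complex) to 5.54 (Ms4a1, which encodes CD20) on the log2 scale. Pax5, which defines the B lineage, was at 0 in both WT libraries and had 34 counts in library 9 and 914 in library 10. Cxcl13, the chemokine that draws B cells into follicles, had 11 and 11 counts in WT, 45 in library 9 and 1545 in library 10, and Cr2, a complement receptor of B cells and follicular dendritic cells, had 1, 0, 10 and 894.
Other sources of the members were examined in the same way. Siglech, which defines plasmacytoid dendritic cells, had 0, 1, 6 and 65 counts in libraries 7 to 10, and Pacsin1, which neurons also express, had 14, 47, 52 and 110. These 2 of 4 markers of that cell were more than 2-fold higher in library 10 than in library 9, whereas Ccr9 had 173 and 127 counts there and Cox6a2 8 and 2. The part of these and of B, T and plasma cells and macrophages in the levels of Spib, Gp2 and Sox8 was not tested.
Gp2 is made by the pancreas as well. Of 10 pancreatic acinar markers, Prss2 and Ptf1a were at 0 in all 4 libraries, Cpa1, Cela3b, Cel and Pnlip were at 0 in library 10, and Cela2a, Cpb1 and Ctrb1 had at most 8 counts there. The tenth, Clps, which encodes colipase, had 999 and 633 counts in WT, 1948 in library 9 and 1946 in library 10. Its log2 fold change was 0.82 (adjusted p = 0.175 in edgeR and 0.0382 in DESeq2). For Sox8, markers of enteric glia summed to 3.24 CPM in library 9 and 3.28 CPM in library 10, against 2.48 and 19.1 CPM in WT. The part of pancreatic RNA in the level of Gp2, and of glial RNA in that of Sox8, was not tested.

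The genes whose pattern over the 4 libraries was most like that of Gp2 were found by the Euclidean distance of log2 CPM, centred on each gene's mean, a description over 4 libraries. They were Clu (distance 1.22), Spib (1.31) and Cd83 (1.31), followed by Igkv4-61, Mfge8, Igkv6-20, Ebf1, Fcrl1, Ighv1-52 and Rubcnl. Clu, which encodes clusterin and is found in M cells and follicular dendritic cells, had 207 and 501 counts in WT, 337 in library 9 and 7279 in library 10. Mfge8, known from follicular dendritic cells and macrophages, had 542, 798, 1034 and 8488 counts. Cd83, a marker of activated B cells and dendritic cells, had 42, 36, 111 and 1182 counts. Reads of the immunoglobulin segments could have been split among near-identical segments.
Those most like Spib were Mfge8 (distance 0.532), Fabp5, Slc9a7, Ighv1-64, Iglv2, Igkv4-74, Ebf1, Defa37, Il22ra2 and Nxpe3 (0.821). Ebf1, a B lineage transcription factor in both sets, had 10, 14, 31 and 261 counts. Il22ra2, a soluble decoy receptor for IL-22 made by dendritic cells of follicles, had 19, 38, 44 and 342 counts. All of these were chosen for being like Gp2 or Spib, so their high values in library 10 carry no test.

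**Figure D4:**
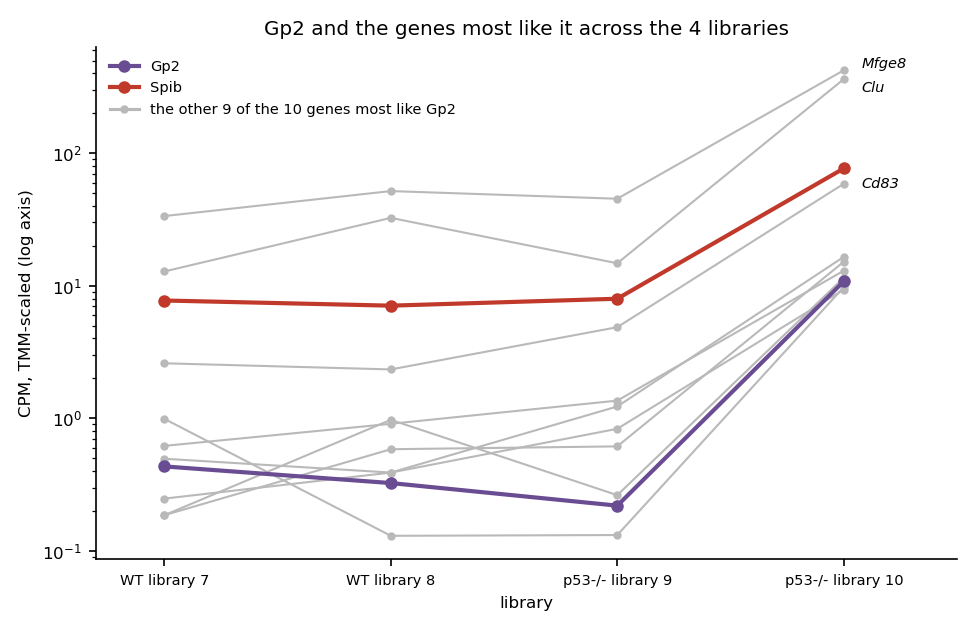
Level in CPM on a log axis in each library for Gp2 (purple), Spib (red) and the other 9 of the 10 genes whose pattern is most like that of Gp2 (grey). All lines are highest in library 10, where Gp2 is at 10.8 CPM, Spib at 76.8 CPM and Mfge8, the highest, at 422 CPM.

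Of 16 genes from RANKL to NF-κB, 15 were tested and 0 passed the threshold in edgeR's quasi-likelihood test (2 had an unadjusted p under 0.05, and 1 was called by DESeq2). Of all tested genes, 10% were higher and 7.92% lower at an unadjusted p under 0.05 in edgeR. DESeq2 called 5.47% higher and 4.47% lower of the genes to which it gave an adjusted p. The median log2 fold change of the 15 genes was 0.07. Relb, the NF-κB subunit of the non-canonical pathway that RANK activates, was at 233 ± 40.5 CPM (SD, n = 2) in WT and 143 ± 15.4 CPM (SD, n = 2) in p53-/- SI, with a log2 fold change of -0.70 (adjusted p = 0.185 in edgeR and 0.0170 in DESeq2) that was -0.23 when scaled to epithelial markers. Its partner Nfkb2 was at 85.7 and 70.1 CPM, on average, a log2 fold change of -0.29 that was 0.19 under that scaling. Nfkbia, which encodes the inhibitor IκBα, had a log2 fold change of 0.65 (edgeR quasi-likelihood adjusted p = 0.261). The adaptor gene Traf6 had a log2 fold change of 0.17, which lay between 0.03 and 0.34 with each library omitted in turn. Map3k14, which encodes the kinase NIK, had one of 0.46 (0.24 to 0.69). With epithelial scaling Nfkbia, Traf6 and Map3k14 were at 1.15, 0.64 and 0.92.

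Other genes known from M cells and the follicle-associated epithelium went in both directions. Of 10 other M cell genes, 10 were tested and 0 passed the threshold in edgeR's quasi-likelihood test (5 had an unadjusted p under 0.05, 4 of them higher). DESeq2 called 1 higher and 1 lower. Over all genes, 10% were higher and 7.92% lower by unadjusted p in edgeR, and DESeq2 called 5.47% and 4.47%. The chemokine gene Ccl9, made by the follicle epithelium, had 188 and 108 counts in WT and 408 and 549 in p53-/- SI, a log2 fold change of 1.28 (adjusted p = 0.177 in edgeR and 0.0364 in DESeq2). Both p53-/- libraries were above both WT libraries. Pglyrp1, a peptidoglycan recognition protein, was at 260 and 380 CPM on average (log2 fold change 0.55, edgeR adjusted p = 0.275; 1.04 with epithelial scaling). Esrrg, a nuclear receptor needed for M cell maturation, had 30, 7, 91 and 95 counts. Serpinb6a, the most abundant of the list, was lower, at 833 and 432 CPM on average, with a log2 fold change of -0.95 (adjusted p = 0.187 in edgeR and 0.00360 in DESeq2) that was -0.44 with epithelial scaling. Clu changed sign with library 10, from 3.06 to -0.58 without it.

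Of 5 genes of the follicle-associated epithelium, all were tested and 0 passed the threshold in edgeR's quasi-likelihood test. At an unadjusted p under 0.05, 2 were higher and 1 lower, against 10% and 7.92% of all tested genes. DESeq2 called 2 higher and 1 lower, against 5.47% and 4.47% over all genes. Ccl20, the chemokine of that epithelium that attracts CCR6+ cells, had 7 and 16 counts in WT and 136 and 332 in p53-/- SI, which is 3.92 on the log2 scale (standard error 0.739, adjusted p = 0.103 in edgeR and 2.31e-05 in DESeq2). Ubd, a ubiquitin-like modifier that is also induced by interferon-γ and TNF, had 4 and 17 counts in WT and 461 and 1210 in p53-/- SI, a log2 fold change of 5.89 (adjusted p = 0.0606 in edgeR and 2.09e-13 in DESeq2). Both genes were higher in both p53-/- libraries, and their log2 fold changes without library 10 were 3.05 and 4.93. Cldn4, a claudin, was lower in both p53-/- libraries, from 330 ± 33.8 CPM (SD, n = 2) to 121 ± 1.77 CPM (SD, n = 2), with a log2 fold change of -1.45 (adjusted p = 0.0553 in edgeR and 4.51e-14 in DESeq2). Psg18, listed with these genes, had 16, 14, 10 and 100 counts and, like Gp2, was high in library 10 alone. The 6 pan-epithelial markers summed to 18910 and 13691 CPM in WT and 12749 and 10569 CPM in p53-/- SI.

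**Figure D5:**
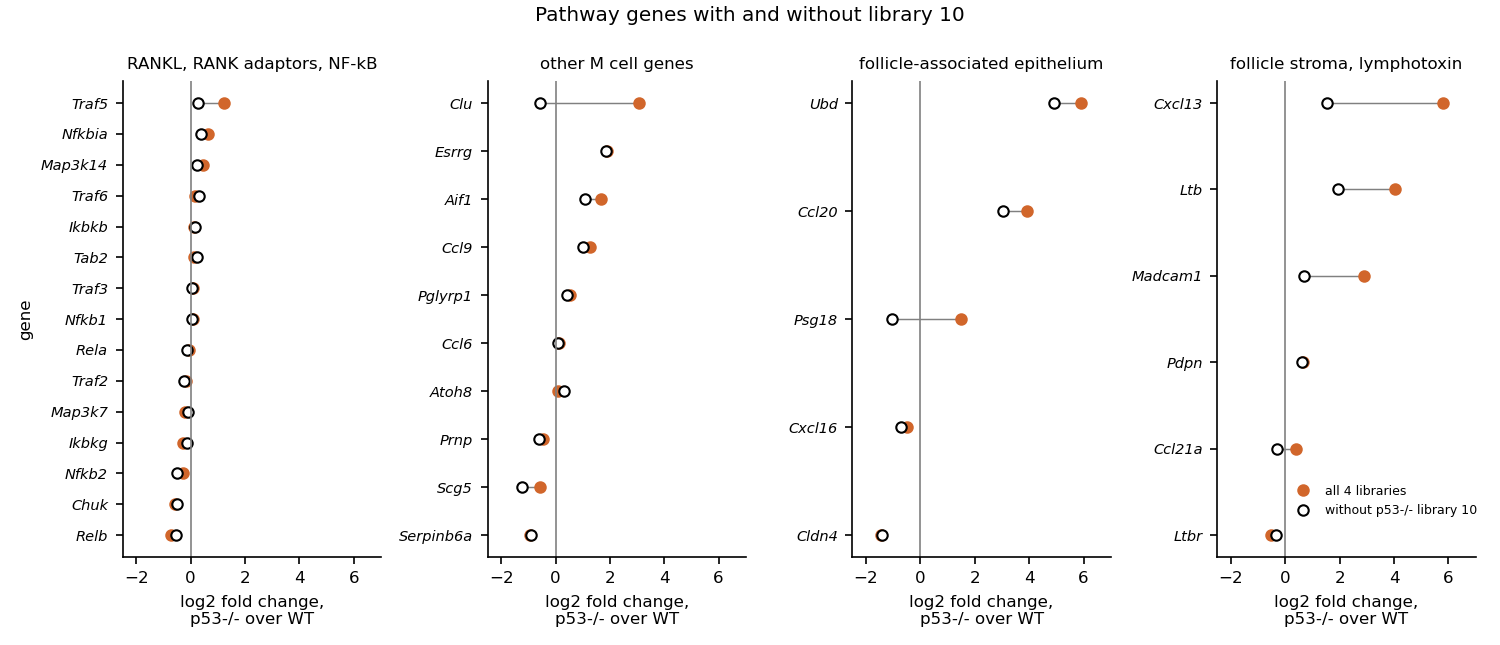
Log2 fold change of each tested gene between p53-/- and WT SI, in 4 panels for RANKL to NF-κB signalling, other M cell genes, follicle-associated epithelium and follicle stroma with lymphotoxin; filled points use all 4 libraries and open points leave out library 10. Ubd, Ccl20 and Cldn4 keep most of their difference without library 10, whereas Clu moves from 3.06 to -0.58 and Psg18 from 1.5 to -1.05.

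Of the follicle stroma and lymphotoxin genes, 6 of 10 were tested and 0 passed the threshold in edgeR's quasi-likelihood test. By unadjusted p under 0.05, 3 were higher and 1 lower, against 10% and 7.92% of all tested genes. DESeq2 called 2 higher, against 5.47% over all genes. Ltb, which encodes lymphotoxin β, a signal for follicle formation, had 21 and 28 counts in WT and 132 and 914 in p53-/- SI, with a log2 fold change of 4.03 that was 1.93 without library 10. Its receptor gene Ltbr was at 165 and 114 CPM on average, a log2 fold change of -0.54 (edgeR adjusted p = 0.272) that was -0.06 with epithelial scaling. Madcam1, the addressin of mucosal vessels, had 9, 27, 41 and 313 counts. Ccl19, a chemokine of the T cell zone, had 0 counts in libraries 7, 8 and 9 and 40 in library 10, and Lta, which encodes lymphotoxin α, had 3, 3, 4 and 83. Of the 8 with more than 3 counts in both p53-/- libraries, 6 were more than 2-fold higher in library 10 than in library 9. Ltbr and Pdpn were not. Of all tested genes, 5.93% were at least 2-fold higher in library 10. By the same count, 4 of 7 T cell, 3 of 7 dendritic cell and 3 of 5 follicle-associated epithelium genes were higher. Among 5 plasma cell and 8 macrophage genes the count was 0.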

How the data were processed

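Poly-A RNA of the SI was sequenced by Novogene. The deposited values are whole-number gene counts that the authors had not normalized. The submitters' processing notes list fastp, HISAT2 2.0.5, featureCounts 1.5.0-p3 and DESeq2 1.20.0; the genome build, annotation and strand of counting are not given in the sources used here, so reads of overlapping genes cannot be told apart. Replicate libraries differed beyond counting noise (chi-square per degree of freedom 34.5 for WT and 48.9 for p53-/-), and p-values measure the spread between these samples only.

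Counts were scaled by TMM, filtered by filterByExpr and tested with edgeR 4.0.16 (quasi-likelihood, two-sided, Benjamini-Hochberg over all genes tested, threshold 0.05) in R 4.3.3. Alternatives were DESeq2 1.42.0, the likelihood ratio test, other scaling factors, other filters on low counts, a table without antigen receptor segments, and omission of single libraries. The code was tested on simulated data. Exon lengths and positions came from GENCODE M21 (GRCm38), which holds 91.9% of the gene identifiers. The members and lists were written by hand and chosen with earlier results of these data known. Named genes are all members, genes of the lists by abundance or counts of 0, and the 10 genes most like Gp2 and Spib; some other list genes (Siglech, Pacsin1, Esrrg, Psg18, Ccl19, Lta, Tnfsf11 and others) were named after their values were seen.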

Additional observations from a re-analysis of the deposited data

How the results depend on the processing

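The count of members past the threshold was 0 in edgeR's quasi-likelihood test. It was 1 by DESeq2, 1 by likelihood ratio and 1 without immunoglobulin and T cell receptor segments (Tnfaip2 each time). With no filter on low counts it was 4 (Gp2, Spib, Tnfaip2 and Anxa5). With single libraries left out, the log2 fold change of Spib ran from 0.16 (without library 10) to 3.37 (without library 9). That of Tnfaip2 ran from 1.47 to 1.75. Without a filter, Gp2 differed by 3.86 on the log2 scale (edgeR adjusted p = 4.43e-07), although it was at the WT level in library 9. Left without a replicate, a library was assumed to vary like the other genotype. In the signalling, other M cell and follicle epithelium lists, higher genes numbered 0, against 3 by DESeq2, 2 by likelihood ratio, 8 unfiltered and 1 scaled to epithelial markers, and lower genes 0, against 3, 2 and 2 with the first 3 of these; leaving out a library gave 0 to 2 and 0 to 1. Over all genes, 48 were higher and 31 lower, against 812 and 663 by DESeq2, 833 and 462 by likelihood ratio, 1433 and 761 unfiltered, 26 and 20 with library size only, 29 and 20 with upper-quartile factors, 155 and 19 scaled to epithelial markers, 24 and 18 with at least 10 counts in every library, and 0 to 565 and 0 to 302 with a library left out. The cause was not tested. Scaling to epithelial markers moved the median of all genes to 0.45 and that of the members to 1.17; with a library left out the members' median ran from 0.34 (without library 10) to 1.2 (without library 8). Marcksl1 turned to -0.052 without library 8 and to -0.0046 without library 10, in a range up to 0.23. No paired analysis was possible because the table's columns carry no replicate number of the labels. Leaving out the 18S ribosomal RNA row, chosen after seeing the data, changed no call of a member.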
